A study of Arabidopsis thaliana with 6 samples.

Results

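SAUR (small auxin up RNA) genes encode short, plant-specific proteins, and 45 members of this family were followed in Arabidopsis thaliana seedlings with and without functional FHY1. The members are a fixed list of gene identifiers, all annotated as SAUR-like auxin-responsive proteins in RefSeq and all found among the 33557 genes of the authors' deposited table. The list takes in the tandem arrays on chromosomes 1, 3, 4 and 5, and leaves out 33 other genes with the same annotation. RNA was sequenced from whole seedlings, labelled as 4 days old, of 2 genotypes with 3 biological replicates each, 6 libraries in all. One genotype is the fhy1-1 mutant, which lacks normal function of FHY1, a chaperone needed for nuclear import of phytochrome A, the receptor for far-red light. The other is the same mutant with a GFP-FHY1 fusion driven by the 35S promoter, a strong promoter active in most tissues, and is called the GFP-FHY1 line here. Both were grown under the same light regime, coded as 4 days of D and 3 h of far-red (FR). The 3 libraries of the GFP-FHY1 line carry the same genotype label, which gives no number of transgenic lines. Wild-type seedlings and seedlings kept from far-red light were not among the samples used here, so an excess of FHY1 and its restored function cannot be told apart.

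SAUR transcripts are among the earliest to accumulate after auxin, and both the transcripts and most of the proteins are short-lived. SAUR proteins bind and inhibit PP2C.D phosphatases, which otherwise remove an activating phosphate from the plasma membrane proton pumps (H+-ATPases), so that SAUR proteins favour proton export, a loosened cell wall and cell expansion. In seedlings that reach light, growth slows in the hypocotyl while the apical hook opens and the cotyledons expand, and individual SAUR genes are known to respond in opposite directions in these organs. RNA of whole seedlings adds these organs together, and fewer cells of a type cannot be told apart from less RNA per cell.

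Most SAUR members, like most tested genes, differed by less than 1.5-fold between the genotypes. Of the few that the authors' test called, SAUR14 and SAUR16 shared a cluster, and so did SAUR50 and SAUR1. The others lay in separate clusters or outside them. The authors' deposited table gives 1 FPKM value (fragments per kilobase of transcript, scaled to sequencing depth) per gene and genotype, with no value per library, so no SD can be given. A gene is called here when the authors' q, the adjusted p-value of their test over all tested genes, was below 0.05. All 45 members were tested in the authors' deposited table; 5 had a higher call and 3 a lower call in the GFP-FHY1 line, and 37 were not called. Over all 23937 tested genes the table called 9.92% higher, 12.9% lower and 22.8% in either direction, so the members' shares of 11.1%, 6.67% and 17.8% lay near or below the background. Centring all log2 fold changes on the median gene left the members at 5 and 3 but turned the split over all tested genes from 2375 higher and 3089 lower to 2891 and 2214. The median log2 fold change (GFP-FHY1 line over fhy1-1) was 0.02 over the members and -0.05 over all tested genes with both values above 0. Of the 45 members, 41 differed by less than 1.5-fold, as did 85.6% of all tested genes with both values above 0, and 2 by at least 2-fold, SAUR14 and the barely expressed SAUR46. The summed FPKM of the members was 931.8 in fhy1-1 against 957.1 in the GFP-FHY1 line. A standard error of each log2 fold change is implied by the authors' test statistic. Its median was 0.165 over the members and 0.134 over all tested genes, so equal differences are less readily called among the members.

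FHY1 itself (AT2G37678) served as the check of the labels. Its level was 19.0 FPKM in fhy1-1, against 195.9 FPKM with the transgene, a 10.3-fold increase. Per the authors' deposited table, all 6 markers of photosynthetic shoot tissue were higher (summed FPKM 4959 in fhy1-1, 7779 with the transgene). Among 9 root markers there were 3 lower calls and 1 higher call (summed FPKM 161.9 and 129.2), with the root stem cell regulators PLT1 and PLT2 at most at 0.547 FPKM in either genotype. All 9 seed reserve transcripts had lower calls (summed FPKM 147.4 and 41.3). The part of these differences in those of the SAUR genes was not tested. Of the summed FPKM of all genes, the ribosomal RNA locus AT2G01021 took up 28.6% without and 38.0% with the transgene, and the median log2 fold change of tested genes at 1 FPKM or more was -0.05.

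The sequence just before the gene start is shown for 5 members, because many windows of the family carry CACATG, the only listed element that was common in the family. Of those shown, the window of SAUR50 holds no match to any listed motif. The window is the 300 bases before the RefSeq gene start (TAIR10.1, the Columbia reference), read 5′ to 3′ on the gene's strand, and capitals mark matches on either strand to any of 7 short motifs. The motifs were the auxin response elements TGTCTC and TGTCGG, the G-box CACGTG and the PBE-box CACATG, both known as binding sites of PIF transcription factors, CACGCGC, the site of FHY3 and FAR1, and the brassinosteroid response elements CGTGCG and CGTGTG. Windows are given for SAUR14 and SAUR6, the called members with the largest fold, and for SAUR50, the most abundant member called higher. SAUR67 and SAUR22 are from the large clusters in which no member was called, and no rule fixed which of their windows are shown. Both hold TGTCTC on one strand or the other, which the windows of SAUR61 and SAUR19 in the same clusters do not.
SAUR14: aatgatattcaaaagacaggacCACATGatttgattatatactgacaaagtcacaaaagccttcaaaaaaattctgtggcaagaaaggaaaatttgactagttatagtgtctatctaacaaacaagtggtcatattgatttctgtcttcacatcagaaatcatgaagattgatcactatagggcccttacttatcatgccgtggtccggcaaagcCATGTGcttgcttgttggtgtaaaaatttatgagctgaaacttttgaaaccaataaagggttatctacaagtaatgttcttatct
SAUR6: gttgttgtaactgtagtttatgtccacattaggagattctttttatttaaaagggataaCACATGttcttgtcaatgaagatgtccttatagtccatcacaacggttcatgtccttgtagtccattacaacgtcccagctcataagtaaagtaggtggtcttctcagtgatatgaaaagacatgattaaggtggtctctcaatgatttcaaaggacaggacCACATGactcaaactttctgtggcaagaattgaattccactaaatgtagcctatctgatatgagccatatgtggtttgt
SAUR50: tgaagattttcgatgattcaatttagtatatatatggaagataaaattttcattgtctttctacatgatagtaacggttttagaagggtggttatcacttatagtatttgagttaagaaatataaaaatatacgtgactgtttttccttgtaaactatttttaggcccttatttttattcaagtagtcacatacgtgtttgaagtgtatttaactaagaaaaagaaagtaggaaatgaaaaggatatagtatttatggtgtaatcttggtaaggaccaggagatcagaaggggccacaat
SAUR67: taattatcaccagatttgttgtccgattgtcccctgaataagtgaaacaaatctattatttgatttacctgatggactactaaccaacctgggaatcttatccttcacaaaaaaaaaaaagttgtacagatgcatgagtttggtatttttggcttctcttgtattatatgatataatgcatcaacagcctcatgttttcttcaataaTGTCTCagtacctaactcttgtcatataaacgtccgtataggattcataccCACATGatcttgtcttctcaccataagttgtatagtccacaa
SAUR22: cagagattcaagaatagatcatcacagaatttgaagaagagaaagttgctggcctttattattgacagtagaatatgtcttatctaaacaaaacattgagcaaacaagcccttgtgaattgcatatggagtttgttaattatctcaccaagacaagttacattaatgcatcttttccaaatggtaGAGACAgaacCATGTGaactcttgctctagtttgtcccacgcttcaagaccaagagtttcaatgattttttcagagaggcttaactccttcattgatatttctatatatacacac
The window of SAUR14 is chr4:18125560-18125859 (minus strand) and that of SAUR6 chr2:9086030-9086329 (minus strand). That of SAUR50 is chr4:16583076-16583375 (minus strand). Those of SAUR67 and SAUR22 are chr1:10322123-10322422 (plus strand) and chr5:5975088-5975387 (minus strand).

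CACATG was present in the windows of 23 of 45 members, 51.1%, against 3583 of 27443 protein-coding promoters of the same length, 13.1%. Members of 1 tandem array descend from common copies and some share an intergenic stretch, so these 23 windows are not independent of each other. It was in all 8 windows of the SAUR61 to SAUR68 array, in all 4 of the SAUR26 to SAUR29 array and in 3 of 6 of the SAUR19 to SAUR24 array, and in 3 of the 16 members that lie outside clusters. Windows with CACATG occurred in every call group: 3 of the 5 members called higher, 2 of the 3 called lower and 18 of the 37 not called had it. TGTCTC was in 7 member windows, 15.6% against 13.0% of all promoters, and in none of the 8 called members. TGTCGG was in 2, CACGTG in 1, CGTGCG in 1, CGTGTG in 2 and CACGCGC in 0 member windows, against 4.91%, 7.09%, 1.78%, 6.11% and 1.21% of all promoters. In SAUR59, 1 of the CACGTG matches overlaps CGTGTG matches. A match describes letters in this window and is no measure of binding.

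The longest run that the SAUR14 and SAUR6 windows share is 15 bases around 1 such element, gacaggacCACATGa, with the PBE-box in capitals (chr4:18125831-18125845, minus strand, TAIR10.1, in the SAUR14 window). It was found in the windows of 3 of 27443 genes, SAUR14, SAUR6 and SAUR15, and was searched for after the values were seen. SAUR14 and SAUR15 point away from each other with 497 bases between their RefSeq gene starts, so theirs is 1 and the same copy of the run.

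The large array of SAUR19 to SAUR24 on chromosome 5, whose proteins promote hypocotyl elongation when stabilised, was level between the genotypes. Its 6 genes span 21.2 kb (5962897 to 5984112, TAIR10). In the authors' deposited table SAUR19 (AT5G18010) stood at 27.4 FPKM in fhy1-1 against 26.0 in the GFP-FHY1 line, and SAUR20 at 30.4 and 32.7. SAUR21 stood at 29.3 and 29.2 FPKM, SAUR22 at 38.3 and 35.1, and SAUR23 at 34.7 and 36.2. SAUR24 (AT5G18080) was the most abundant member of the family at 130.8 and 135.5 FPKM. In no gene of the array did the genotypes lie far apart: 3 were slightly higher and 3 slightly lower in the GFP-FHY1 line. At the 22.8% share of all tested genes a set this small can hold 0 calls, and 0 of these 6 genes were called. Their log2 fold changes ran from -0.13 to 0.11, and their 95% intervals together reached from -0.36 to 0.36, that is from 0.779-fold to 1.28-fold. Each interval comes from the standard error implied by the authors' fold change and test statistic, and may not hold the full spread between replicates.

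The coding sequences of the array are 87.7% to 95.2% identical between pairs, with identical runs of 30 to 86 bases, so how reads were divided among the copies is uncertain. The sum over the array was 290.9 FPKM in fhy1-1 against 294.8 with the transgene, 1.32% higher. The level of SAUR24 within the array rests on its gene model. Its locus in the table spans 273 bp, the coding part alone, while those of the other members of the array span 488 to 543 bp, and FPKM divides by transcript length. The table's loci of SAUR29, SAUR10, SAUR46 and SAUR53 were likewise coding spans only.

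**Figure D1:**
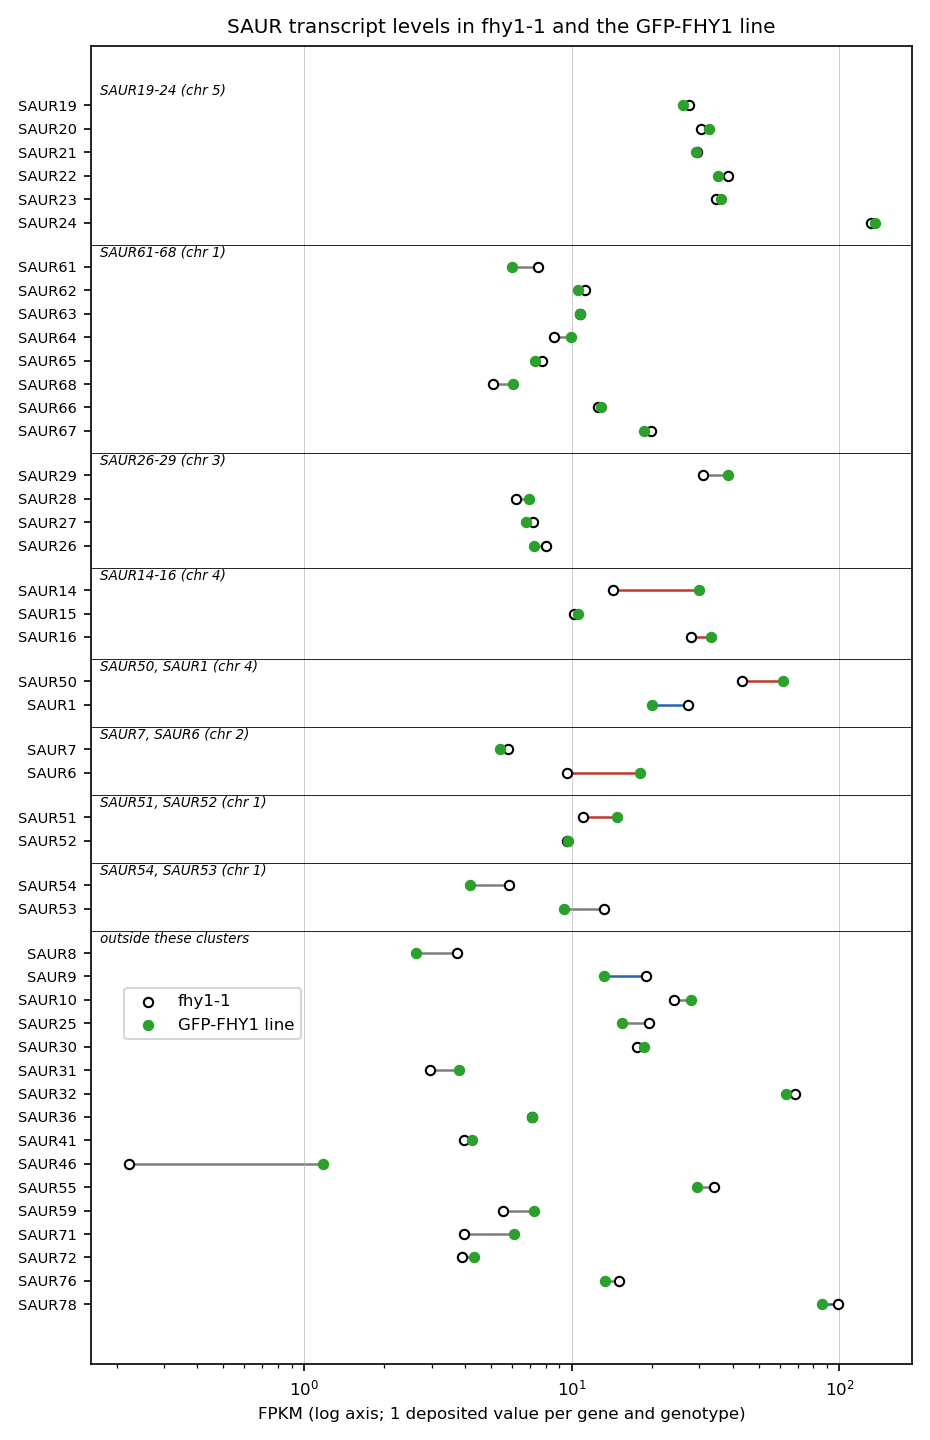
FPKM of each of the 45 SAUR members in fhy1-1 (open circles) and in the GFP-FHY1 line (green circles), on a log axis and grouped by tandem cluster; each point is the authors' 1 value per genotype, and the joining line is red for members called higher, blue for members called lower and grey for the rest. The points of the 6 SAUR19 to SAUR24 genes nearly coincide, while those of SAUR14 lie at 14.3 and 29.9 FPKM.

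The second large array, SAUR61 to SAUR68 on chromosome 1 (10300878 to 10323189), also had 0 of 8 genes called, against 22.8% of all tested genes. The median implied standard error of the 8 was 0.193, against 0.134 over all tested genes. SAUR63 (AT1G29440), which promotes elongation of hypocotyls and floral organs, was at 10.8 FPKM in both genotypes, with a 95% interval of the log2 fold change from -0.37 to 0.37. AT1G29510, listed in RefSeq as SAUR68 and SAUR67 and called SAUR67 here, was the most abundant of the array at 19.8 FPKM in fhy1-1 against 18.6 in the GFP-FHY1 line. SAUR66 stood at 12.5 and 12.8 FPKM, SAUR62 at 11.2 and 10.6, and SAUR64 at 8.59 and 9.95.
SAUR65 was at 7.72 and 7.31 FPKM, SAUR61 at 7.47 and 6.01, and SAUR68 (AT1G29490) at 5.08 and 6.07. Again the genes lay on both sides of no change, 3 above and 5 below, with log2 fold changes from -0.31 to 0.26 and intervals from -0.70 to 0.74. The array sum was 83.2 FPKM in fhy1-1 against 82.0 with the transgene. Pairs within it were 45.4% to 89.3% identical in coding sequence. SAUR62 shared 97.0% with SAUR75, which is not among the members, including 162 identical bases in a row, so reads of these genes may be exchanged. The locus of SAUR61 overlaps another gene in the table.

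On chromosome 3 the array SAUR29, SAUR28, SAUR27 and SAUR26 (976933 to 983751), known from growth in warm conditions, had 0 of 4 genes called in the authors' deposited table. The share over all tested genes was 22.8%. The median implied standard error of the 4 was 0.212, against 0.134 over all tested genes. SAUR29 stood at 31.0 FPKM in fhy1-1 against 38.5 in the GFP-FHY1 line, and the other members at 6.19 to 8.03 FPKM in fhy1-1 and 6.77 to 7.23 in the GFP-FHY1 line. In 2 genes the GFP-FHY1 line was slightly higher and in 2 slightly lower, with log2 fold changes from -0.15 to 0.31 and intervals from -0.57 to 0.73. Coding sequences within it were 77.7% to 86.3% identical.

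The strongest change of a called member was in the chromosome 4 cluster of SAUR14, SAUR15 and SAUR16 (18124978 to 18131060). SAUR14 (AT4G38840, 18124978 to 18125559), which is known to be induced by light in cotyledons, rose from 14.3 FPKM in fhy1-1 to 29.9 FPKM in the GFP-FHY1 line. That is a 2.09-fold increase, with a log2 fold change of 1.06, an implied standard error of 0.14 and q = 2.94e-12 in the authors' deposited table. SAUR16 (AT4G38860), a light-induced gene that promotes cotyledon opening, rose from 27.9 to 33.2 FPKM (1.19-fold, log2 fold change 0.25, standard error 0.09, q = 0.0309 in the same deposited table of the authors). SAUR15 (AT4G38850), the auxin-induced gene first described as SAUR-AC1, lies between them and stood at 10.2 and 10.6 FPKM. Its log2 fold change was 0.05 with an interval from -0.36 to 0.46, and it was not called (q = 0.929 in the authors' deposited table). The intervals of SAUR14 (0.78 to 1.35) and SAUR15 do not overlap, although 611 bp separate their loci in the table and they share 1 intergenic stretch; the difference between them was not tested. Coding sequences in this cluster were at most 60.3% identical, with no identical run above 15 bases. SAUR13 (18121526 to 18122010), a neighbour that is not among the members, stood at 17.8 and 15.1 FPKM and was not called.

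SAUR50 and SAUR1, neighbours on chromosome 4, changed in opposite directions. SAUR50 (AT4G34760, 16582183 to 16582879), a light-induced gene that promotes cotyledon opening, rose from 43.3 FPKM in fhy1-1 to 61.7 FPKM in the GFP-FHY1 line. The increase was 1.43-fold, with a log2 fold change of 0.51, a standard error of 0.08 and q = 6.20e-10 in the authors' deposited table. SAUR1 (AT4G34770, 16591229 to 16591892), 8349 bp away, fell from 27.14 to 20.01 FPKM. The decrease was 1.36-fold (log2 fold change -0.44, standard error 0.12), with q = 0.00147 in the authors' deposited table. The same stretch of the chromosome holds 5 SAUR genes that are not members, and 0 of them were called, against 22.8% of all tested genes. SAUR49 stood at 8.66 and 10.12 FPKM, SAUR4 at 33.5 and 22.9, and SAUR5 at 24.5 and 19.6, while SAUR3 and SAUR2 were below 3 FPKM in both genotypes. SAUR50 thus had the highest level of this stretch in either genotype. The decrease of SAUR4 was 1.47-fold, larger than that of SAUR1, but its standard error was 0.24 (q = 0.0910 in the authors' deposited table). Its unadjusted interval from -1.03 to -0.08 left out 0. SAUR5 and SAUR3 also lay lower, and SAUR49 and SAUR2 higher.

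In 2 of the other 3 pairs of neighbouring members, 1 gene was called and the other was not. SAUR6 (AT2G21210, chromosome 2, 9085210 to 9085909) rose from 9.62 FPKM in fhy1-1 to 18.0 FPKM in the GFP-FHY1 line, 1.87-fold (log2 fold change 0.91, standard error 0.16), with q = 1.67e-07 in the authors' deposited table. Its neighbour SAUR7 stood at 5.81 and 5.40 FPKM, with an interval from -0.73 to 0.52 that ends below that of SAUR6 (0.59 to 1.22). The RefSeq coding sequence of SAUR6 reaches outside the table's locus, so the measured model differs from the RefSeq one. SAUR12 (9089326 to 9089813), a neighbour that is not among the members, stood at 0.653 and 2.02 FPKM and was not called. SAUR51 (AT1G75580, chromosome 1, 28377461 to 28378178) rose from 11.1 to 14.8 FPKM, 1.34-fold (log2 fold change 0.42, standard error 0.15), with q = 0.0200 in the authors' deposited table. SAUR52, 4717 bp further on, stood at 9.59 and 9.71 FPKM, and its interval (-0.26 to 0.29) overlaps that of SAUR51 (0.13 to 0.71). SAUR54 and SAUR53, the remaining pair, were not called: SAUR54 was at 5.83 and 4.19 FPKM and SAUR53 at 13.2 and 9.33 FPKM (q = 0.165 and 0.0749 in the authors' deposited table). Differences between neighbours were not tested in these pairs.

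**Figure D2:**
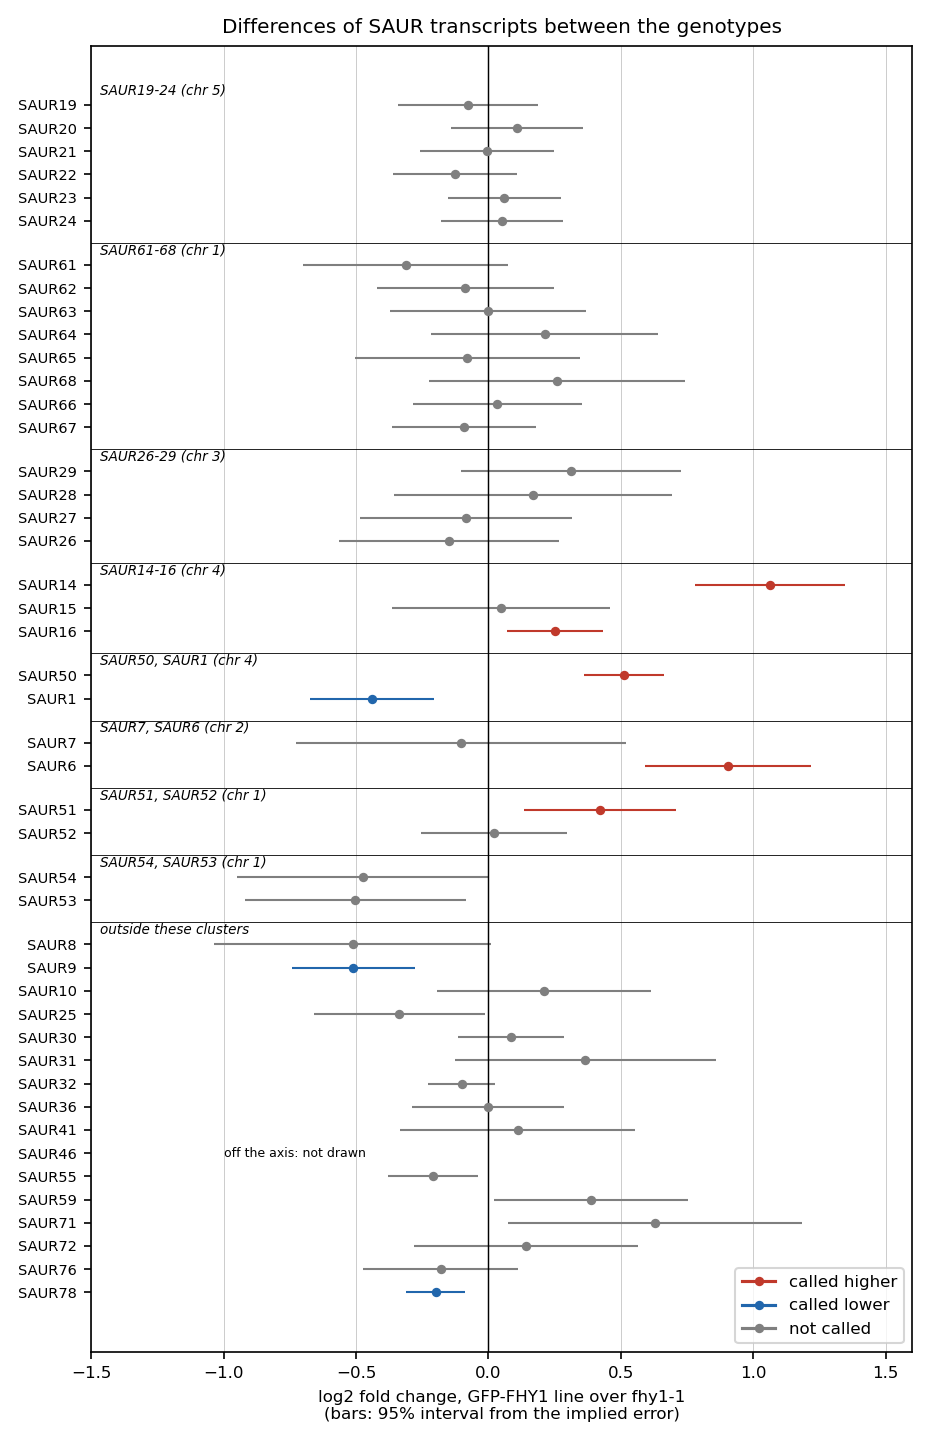
log2 fold change (GFP-FHY1 line over fhy1-1) of each SAUR member, with bars for the 95% interval from the implied error, by cluster; red marks members called higher, blue called lower and grey not called, and SAUR46 (2.41, interval -0.71 to 5.52) is off the axis. Called and uncalled members lie side by side in the SAUR14 to SAUR16 cluster, and SAUR50 (0.51) and SAUR1 (-0.44) lie on opposite sides of 0.

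Among the 16 members outside clusters, 2 were called lower and 0 higher, 12.5% and 0% against 12.9% and 9.92% of all tested genes. Called or not, 8 had a log2 fold change above 0 and 8 below. SAUR9 (AT4G36110, chromosome 4, 17089949 to 17090825), an inhibitor of PP2C.D phosphatases, fell from 18.9 FPKM in fhy1-1 to 13.3 FPKM in the GFP-FHY1 line, 1.42-fold (log2 fold change -0.51, standard error 0.12), with q = 1.44e-04 in the authors' deposited table. SAUR78 (AT1G72430, chromosome 1, 27264911 to 27265630), which is linked to ethylene receptor signalling, was the most abundant of these genes. It fell from 98.6 to 85.8 FPKM, 1.15-fold (log2 fold change -0.20, standard error 0.06), with q = 0.00264 in the authors' deposited table. SAUR76, of the same small group, was at 15.1 and 13.3 FPKM and was not called.

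The remaining genes outside clusters were not called. SAUR32, known from the apical hook, stood at 68.0 and 63.4 FPKM, and SAUR36, known from leaf senescence, at 7.13 and 7.12 FPKM. SAUR55 (34.1 and 29.5 FPKM) came nearest to a call from below, with q = 0.0676 in the authors' deposited table. SAUR10 was at 24.2 and 27.9 FPKM, SAUR25 at 19.5 and 15.4, and SAUR30 at 17.6 and 18.7. The genes SAUR59, SAUR71, SAUR72, SAUR41, SAUR31 and SAUR8 stayed between 2.63 and 7.23 FPKM in both genotypes. SAUR71 had the largest difference of these, 3.95 against 6.10 FPKM (log2 fold change 0.63, interval 0.07 to 1.18), and was not called (q = 0.101 in the authors' deposited table). SAUR46 had the largest fold of all members on paper, from 0.222 to 1.18 FPKM, but its interval reached from -0.71 to 5.52 on the log2 scale and it was not called. The loci of SAUR8 and SAUR7 overlap other genes in the table. For 6 members that were not called, the interval of the log2 fold change, which is not adjusted for the number of genes tested, left out 0.

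**Figure D3:**
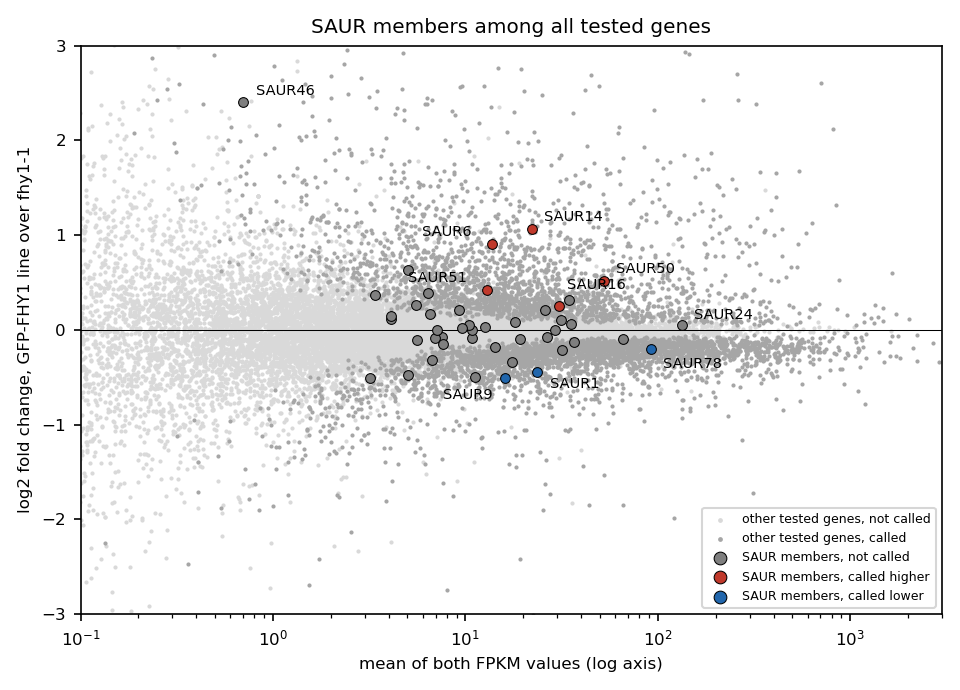
log2 fold change (GFP-FHY1 line over fhy1-1) against the mean of both FPKM values (log axis) for all tested genes with both values above 0 (light grey not called, dark grey called), with the 45 SAUR members as larger circles, red called higher, blue called lower and grey not called; genes beyond the axes are not drawn. Most members lie close to 0, and SAUR14 (1.06) and SAUR6 (0.91) are the highest of the called members.

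The 33 other SAUR genes of the table were mostly low: 23 reached 1 FPKM in either genotype and 4 were not tested, being listed at 0. Of the 29 tested in the authors' deposited table, 0 were called higher and 2 lower. These are 0% and 6.90%, against 9.92% and 12.9% of all tested genes. The median implied standard error of the 29 was 0.392, against 0.134 over all tested genes, so many differences among them could not be called. SAUR17 (AT4G09530, chromosome 4, 6029413 to 6029724), which keeps the apical hook closed in darkness, opposite to SAUR50, fell from 39.1 FPKM in fhy1-1 to 12.7 FPKM in the GFP-FHY1 line. This was a 3.08-fold decrease (log2 fold change -1.63, standard error 0.26), with q = 4.95e-09 in the authors' deposited table, larger than that of any called member. SAUR37 (AT4G31320) fell from 25.8 to 17.8 FPKM, 1.45-fold (q = 9.06e-04 in the authors' deposited table).

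Among genes that act around the SAUR proteins, 19 of 43 tested were called, against 22.8% of all tested genes (9.92% higher and 12.9% lower). The median implied standard error of these 43 was 0.078, against 0.134 over all tested genes, so smaller differences are called among them. The 3 largest folds among the 19 called genes were those of the bHLH factors PIF4, PIF5 and HFR1. The authors' deposited table gave a lower call to 2 of 6 auxin receptors and a higher call to 0, AFB2 (36.9 and 33.6 FPKM) and AFB1 (50.9 and 46.6 FPKM), while TIR1 stood at 45.2 and 45.8 FPKM. Of 5 activating auxin response factors, which bind auxin response elements, 2 had a higher call and 1 a lower call. ARF8 rose from 18.9 to 21.3 FPKM and ARF7 from 14.2 to 15.9, and ARF6 fell from 39.2 to 35.8 FPKM. The increase of ARF8 was 1.13-fold and the decrease of ARF6 1.09-fold.

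Of 9 PP2C.D phosphatases, which SAUR proteins inhibit, 1 had a higher and 1 a lower call in the authors' deposited table. Over all tested genes 9.92% were called higher and 12.9% lower. AT5G66080 fell from 14.6 FPKM in fhy1-1 to 10.3 FPKM in the GFP-FHY1 line, 1.41-fold, and AT3G51370 rose from 51.9 to 56.4 FPKM. AT5G02760 (PP2C.D1), the partner of SAUR17 and SAUR50 in the hook, stood at 8.17 and 8.74 FPKM with an interval from -0.12 to 0.32. Of 11 plasma membrane proton pumps the authors' deposited table tested 10, with 1 higher call and 3 lower calls. The main pumps AHA2 and AHA1 fell from 793.6 to 673.6 FPKM (1.18-fold) and from 239.2 to 214.4 FPKM (1.12-fold), AHA7 fell 1.25-fold, and AHA3, at 6.35 and 8.12 FPKM, rose 1.28-fold.

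The authors' deposited table gave a lower call to 3 of 6 brassinosteroid signalling genes and a higher call to 0. The receptor gene BRI1 fell 1.06-fold, its co-receptor gene BAK1 1.09-fold and the kinase gene BIN2 1.08-fold. The median implied standard error of the 6 was 0.057, against 0.134 over all tested genes, so small differences are called among them. In the authors' deposited table, 5 of 7 light and growth bHLH factors had a higher call and 0 a lower one, and their median log2 fold change was 0.65. PIF4 rose from 3.04 to 5.96 FPKM (1.96-fold) and PIF5 from 4.93 to 9.06 FPKM (1.84-fold); both are growth-promoting factors that bind G-box and PBE-box elements. HFR1, which holds PIF proteins back, rose 1.57-fold, HBI1 1.39-fold and PIF1 1.23-fold. PIF3 stood at 32.2 and 30.3 FPKM and was not called. With these lists put together, 9 of 43 tested genes were called higher and 10 lower, 20.9% and 23.3% against 9.92% and 12.9% of all tested genes. After centring on the median gene, AFB2, AFB1, ARF6, BAK1, BIN2 and BRI1 were no longer called, and with the error widened by a replicate spread of 10% the calls left were those of AT5G66080, PIF4, PIF5, HFR1 and HBI1.

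**Figure D4:**
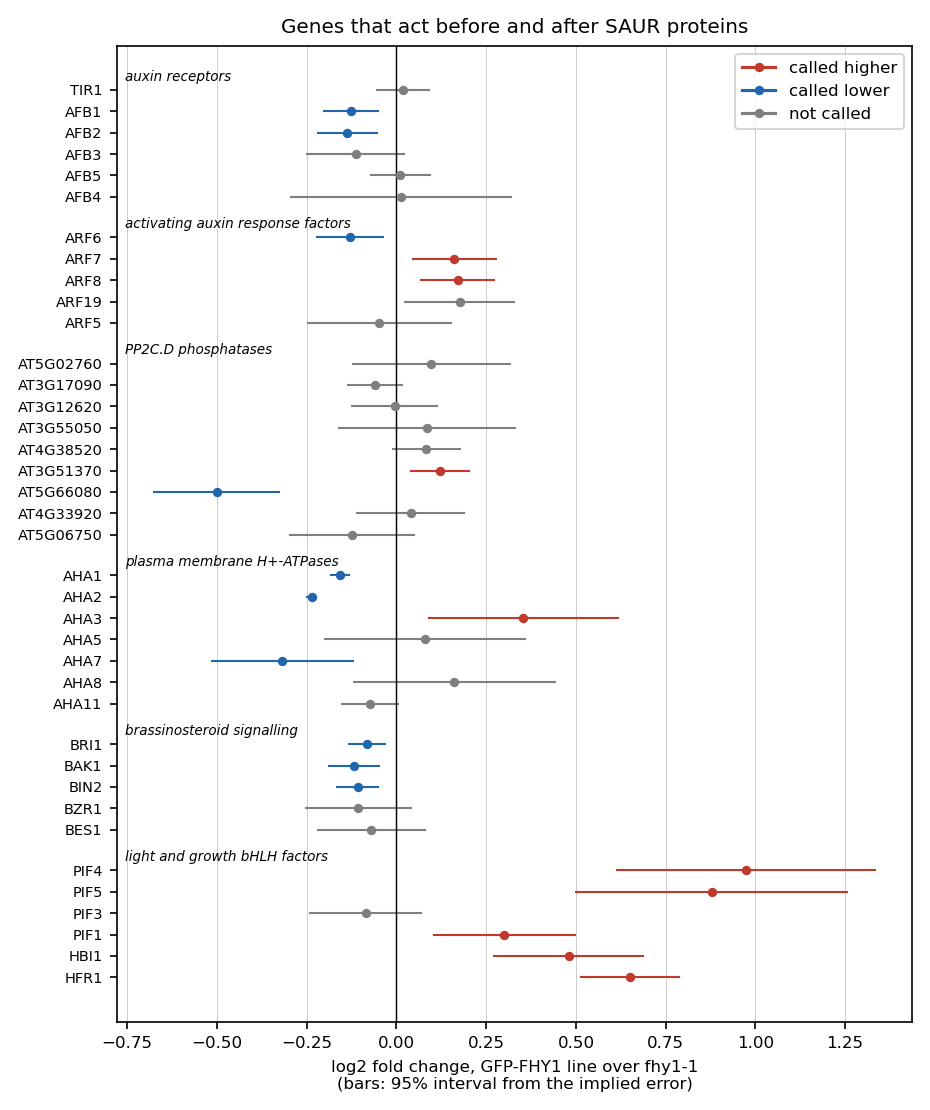
log2 fold change (GFP-FHY1 line over fhy1-1), with bars for the 95% interval from the implied error, of the auxin receptors, activating auxin response factors, PP2C.D phosphatases, proton pumps, brassinosteroid genes and bHLH factors with a mean of at least 1 FPKM; red marks genes called higher, blue called lower and grey not called. PIF4 (0.97) and PIF5 (0.88) are farthest above 0, and AT5G66080 (-0.50) is farthest below.

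How many SAUR members are called depends on how wide the error is taken to be. When the implied error was widened by a coefficient of variation of 10% between replicates, 4 members were called, SAUR14, SAUR50, SAUR6 and SAUR9, against 7.49% of all tested genes in either direction. Widened by 20%, the error left SAUR14 alone called, against 2.80% of all tested genes. Stricter rules gave 6 members with q below 0.01 (18.0% of all tested genes), 3 after Bonferroni adjustment (10.6%), 1 where the change had to be at least 2-fold (2.60%) and 2 where it had to reach 0.58 on the log2 scale after adding 1 FPKM (4.56%). The number of members called was 8 among genes at 1 FPKM or more (29.0% called), with loci that overlap left out (23.0%) and with centring on the median (21.3%). SAUR14 was called under every one of these alternatives.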

How the data were processed

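The members and lists were chosen with earlier results of these data known. Bowtie and TAIR10 are listed in the submitters' processing notes. Tool versions, filters, the use of strand and how dispersion was set: not given in the sources used here. From the reads the authors deposited 1 gene table in the Cuffdiff layout, whose value columns are read as FPKM, with the 3 libraries of a genotype combined. Depth is unknown, so counting error is not given. The authors' deposited test statistic and log2 fold change columns are scores, the latter with a placeholder for infinity, and their p-values and q-values cover the tested genes. Loci are in TAIR10, written from 1.

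From these, log2 fold changes were recomputed without a pseudocount, and a standard error was taken as the fold change divided by the statistic (Python 3.11.15, numpy 2.4.6, pandas 2.3.3). Calls used q below 0.05. Clusters are runs of members with starts within 50 kb. Names, coding sequences and windows of 300 bases came from RefSeq (TAIR10.1); all 45 members matched. RefSeq coding spans lay inside the table's locus for 96.7% of genes and 42 of 45 members. Identity was measured on global alignments. Named genes are FHY1, all members, and at most 6 called genes per list by size of change (mean FPKM 1 or more); others were picked after seeing their values. The retests were run on data simulated with the errors they assume, which cannot show whether those errors hold the spread between replicates. No test over libraries could be run.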

Additional observations from a re-analysis of the deposited data

How the results depend on the processing

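Higher and lower calls, 5 and 3 among the members as reported, came to 3 and 3 with q below 0.01, 1 and 0 when the change had to reach 2-fold, 3 and 0 after Bonferroni adjustment, and 2 and 0 on the scale with a pseudocount of 1. With the error widened by 10% and 20% they were 3 and 1, then 1 and 0. A stricter threshold or a larger error can only lower these counts. The counts stayed at 5 and 3, with the same 8 genes, for genes at 1 FPKM or more, without overlapping loci, and when log2 fold changes were centred on the median of -0.05. Over all tested genes, higher and lower calls were 1971 and 2348 with q below 0.01, and 508 and 114 at 2-fold. They were 1268 and 1258 after Bonferroni adjustment, and 837 and 255 with the pseudocount. With the error widened by 10% they were 1193 and 599, and by 20% they were 577 and 93. Centring moved the share of higher calls over all tested genes from 43.5% to 56.6%. It also turned the sign of 3 uncalled members near 0, SAUR21 (0.044), SAUR63 (0.047) and SAUR36 (0.048). No paired analysis was possible because the libraries of each genotype were combined before deposit. Leaving out single replicates was not possible either. Depth is unknown, so which small differences it hides cannot be said.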
